A study of Mus musculus with 8 samples.

Results

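The MYC, MAX and MXD network is a group of transcription factors that pair through a basic helix-loop-helix leucine zipper and bind the E-box DNA sequence. MAX is the shared partner: MYC with MAX activates genes of growth and division, whereas the MXD proteins, MNT and MGA compete for MAX and recruit repressors. MLX pairs with MLXIP (MondoA), a factor that responds to sugar phosphates, and also with MNT and some MXD proteins. In B cells, Myc is induced soon after activation and is known for driving growth before division. The network was followed here through the mRNAs of 10 genes (Myc, Max, Mxd1, Mxd3, Mxd4, Mxi1, Mnt, Mga, Mlx and Mlxip), selected by gene symbol among the 53242 genes of the deposited tables. All 10 were present once and all 10 passed the filter on low counts, which kept 14218 genes.

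RNA was sequenced from splenic B cells of C57BL/6 mice aged 8 to 12 weeks, 4 control mice (Eif4a1+/+ CD23-cre) and 4 4A1 KO mice (Eif4a1fl/fl CD23-cre). In the floxed allele loxP sites flank exons 2 to 4 of Eif4a1, which encodes the RNA helicase of the translation initiation complex, and both genotypes carried the CD23-cre transgene, which is active from the immature B cell stage in the spleen. All B cells had spent 24 h in IL4 (40 ng/ml) above irradiated CD40LB feeder cells, fibroblasts that display CD40 ligand and BAFF, and the feeders were then depleted with beads. Replicates 1 and 3 were males and replicates 2 and 4 females, replicates 1 and 2 were labelled batch A and replicates 3 and 4 batch B. Each library came from 1 mouse. The series' notes exclude replicate 1 of both genotypes for low viability, so 6 libraries were tested, and the values of replicate 1 are given beside those of the members.

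Between 38488341 and 43210858 reads were counted in each of these 6 libraries, and 31727557 in the smallest of the 8 (4A1 KO 1). Eif4a1 itself averaged 856 ± 98.1 CPM (counts scaled to the library total, with TMM factors) in control against 629 ± 67.4 in 4A1 KO (SD, n = 3), with no overlap between the genotypes, although its gene-level count also includes exons outside the deleted part. Its log2 fold change was -0.44 (edgeR's quasi-likelihood test, Benjamini-Hochberg adjusted p = 1.15e-04). Over the 6 libraries, the summed level of 7 B cell markers was 2570 to 2809 TPM (the share of transcripts, scaled by length) in control and 1858 to 2101 in 4A1 KO, with Cd79a, Cd79b and Cd22 called lower. That of 4 plasma cell markers was 165 to 197 and 81.8 to 117, with Sdc1, Prdm1 and Xbp1 called lower. Xbp1 made up most of this sum in every library, and Jchain, the fourth marker, did not pass (log2 fold change 0.21, edgeR). The 9 fibroblast markers summed to 4.06 to 18.6 TPM in control and 6.38 to 7.81 in 4A1 KO, with Fn1 called higher, Col3a1 called lower and Postn at 0 in every library. Of the 6 T cell markers, which summed to 13.3 to 20.9 and 8.95 to 16.6 TPM, almost all signal came from Lck, and Cd3g was at 0 in every library. Lck was the 1 of them high enough to be tested, and it passed the adjusted p downwards without being called (-0.40, edgeR, adjusted p = 0.00518). The 6 myeloid markers summed to 10.5 to 13.0 and 15.6 to 18.4 TPM, with Adgre1 called higher and Mpo at 0 in every library. The 4 NK cell markers summed to 0.605 to 0.845 and 0.256 to 0.629 TPM, with Ncr1 and Gzma at 0 in every library, and Prf1, the 1 tested, did not pass (-0.90, edgeR, adjusted p = 0.0676). Replicate 1 was outside these ranges for the B cell (2826 TPM), myeloid (15.2), NK cell (0.565) and plasma cell markers (204) in control, and for the fibroblast (11.4) and NK cell markers (0.711) in 4A1 KO. The part of these markers in the differences below was not tested, and in bulk RNA fewer cells of a type and less RNA per cell cannot be told apart.

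The E-box that the network binds best has the letters CACGTG, which read the same on both strands. It was searched for in the promoters of the members, from 250 bases before to 50 bases after each RefSeq start (GRCm38.p6 table), and 9 of the 10 members had an entry. It was found in 4 of these 9 members (44.4%), against 2187 of 27025 genes with an entry (8.09%). The 4 sites are shown with 12 bases on each side because they are the DNA letters the network's own proteins read. Each is written 5′ to 3′ on the strand of its gene with the E-box in capitals.
Max, chr12:77009008-77009037 of GRCm39, minus strand: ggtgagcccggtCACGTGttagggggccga
Mlx, chr11:100978064-100978093 of GRCm39, plus strand: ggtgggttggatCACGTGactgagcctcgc
Mnt, chr11:74721615-74721644 of GRCm39, plus strand: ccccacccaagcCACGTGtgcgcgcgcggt
Mxd4, chr5:34345256-34345285 of GRCm39, minus strand: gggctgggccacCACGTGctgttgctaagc
The coordinates come from an exact match of each RefSeq promoter to GRCm39. The first base of the E-box was 3 bases before the RefSeq start in Max, 40 in Mlx, 123 in Mnt and 219 in Mxd4. Against the canonical GENCODE M39 transcripts the sites of Max, Mlx and Mxd4 were upstream of the start, and that of Mnt was in the 5′ UTR part of an exon. The E-box of Mlx (100978076 to 100978081) crosses the first base of the Mlx gene, 100978080, which belongs to another transcript. These 4 genes did not share a direction in 4A1 KO, as Max, Mnt and Mxd4 were higher and Mlx was lower in the 6 libraries. Only Mnt of the 4 was called. Mxd4 and Mlx did not pass the adjusted p in several of the other fits given below. A match is a run of letters and not a measurement of binding.

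Of the 10 members, Mnt and Mlxip were called higher in 4A1 KO and Mxd3 was called lower, at an adjusted p under 0.05 and a log2 fold change beyond 0.5 in either direction. That is 2 of 10 higher beside 11.6% of all genes tested, and 1 of 10 lower beside 13.7%. Without the limit on size, 7 members were higher (26.3% of all genes) and 2 were lower (26.7% of all genes), and Myc was the 1 member that did not pass. The median log2 fold change was 0.41 over the members and 0.01 over all genes. Over all 8 libraries, 3 members did not overlap between the genotypes, Max and Mlxip being higher and Mxd3 lower in every 4A1 KO library, where 36.9% of all genes did not overlap. In the TPM, 6 members passed an adjusted p of 0.05 in limma, namely Max, Mxd3, Mxi1, Mnt, Mga and Mlxip, where 50.7% of all genes passed. Mga and Mxi1 did not pass in most of the other fits of the TPM.

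**Figure D1:**
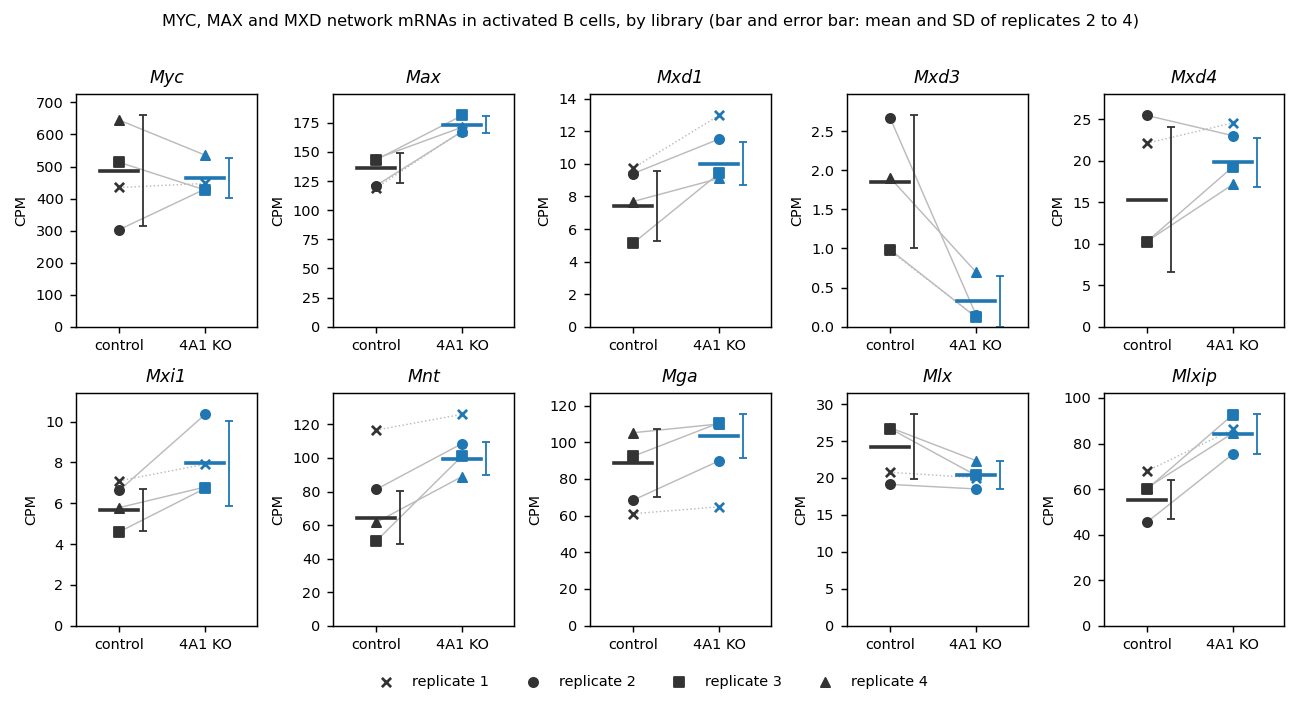
CPM of the 10 network mRNAs in each library (vertical axis, from 0), with control in black and 4A1 KO in blue; each symbol is a library, lines join libraries of the same replicate number (dotted for replicate 1), and the bar and error bar are the mean and SD of replicates 2 to 4. All 4A1 KO libraries sit above all control libraries for Max and Mlxip and below them for Mxd3, whereas the lines of Myc cross.

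Myc, the activating partner of MAX, is at chr15:61857227-61862223 (GRCm39, plus strand; ENSMUSG00000022346). Its CPM were 434.5, 303, 513 and 645 in control 1 to 4, and 447, 430, 426 and 535 in 4A1 KO 1 to 4. Control 2 was the lowest and control 4 the highest of all 8 libraries, and the 4A1 KO libraries lay between them, so the groups overlapped. The 3 tested controls averaged 487 ± 172 CPM and the 3 tested 4A1 KO libraries 464 ± 61.9 (SD). The log2 fold change was -0.01 with a 95% confidence interval of -0.31 to 0.28 (edgeR's quasi-likelihood test, Benjamini-Hochberg adjusted p = 0.939). This interval covers decreases and increases of moderate size, so these libraries do not show that Myc mRNA was the same in both genotypes.

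The direction of Myc was not the same in all pairs of libraries. From control to 4A1 KO of the same replicate number, the log2 CPM of Myc changed by 0.04 and 0.50 in replicates 1 and 2 of batch A, and by -0.27 in each of replicates 3 and 4 of batch B. In log2 TPM the changes were -0.02, 0.49, -0.22 and -0.29 in replicates 1 to 4, so replicate 2 was the 1 pair above 0 in TPM. Fitted within a batch, the log2 fold change was 0.29 in batch A (edgeR, adjusted p = 0.0229) and -0.27 in batch B (edgeR, adjusted p = 0.00895), both below the limit on size. These fits were chosen after seeing the data, and each held 2 libraries per genotype, so their p-values measure the spread between mice poorly. Batch A also includes replicate 1, which had low viability. The difference of the genotype effect between batches, tested as an interaction in all 8 libraries, was -0.52 and did not pass (edgeR, adjusted p = 0.999). Among controls, Myc was higher in both batch B libraries than in both batch A libraries, by 1.57-fold, whereas the batches overlapped among the 4A1 KO libraries. The highest control library was 2.13 times the lowest, and the highest 4A1 KO library was 1.26 times the lowest.

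Max encodes the obligate partner of MYC and a shared partner of the MXD proteins, MNT and MGA (chr12:76984043-77009009, GRCm39, minus strand; ENSMUSG00000059436). Its CPM were 119, 121, 143 and 144 in control 1 to 4, and 168, 167, 181 and 171 in 4A1 KO 1 to 4. All 4A1 KO libraries were above all control libraries. Max averaged 136 ± 13.1 CPM in control against 173 ± 7.14 in 4A1 KO (SD, n = 3), which is 27.2% more. This gave a log2 fold change of 0.35 with SE 0.05 (edgeR, adjusted p = 7.32e-04). Max therefore passed the adjusted p but not the limit on size. It was 0.50 within batch A and 0.29 within batch B, each past the adjusted p in edgeR.

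The MXD genes encode repressors that pair with MAX and recruit SIN3 and histone deacetylases, and several of them are known to increase as cells leave the cell cycle. Mxd3 is the exception, being known for expression in S phase. In these B cells Mxd3 was called lower in 4A1 KO. Mxd1, Mxd4 and Mxi1 passed the adjusted p upwards but were not called, and none of these 3 passed without the replicate block (edgeR, adjusted p = 0.158, 0.430 and 0.113).

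Mxd3 is at chr13:55472981-55477908 (GRCm39, minus strand; ENSMUSG00000021485). It had 39, 108, 41 and 83 counts in control 1 to 4, and 4, 6, 5 and 30 in 4A1 KO 1 to 4. In CPM these were 0.974, 2.67, 0.987 and 1.91 in control, and 0.127, 0.156, 0.123 and 0.701 in 4A1 KO. The genotypes did not overlap, all 4A1 KO libraries being the lower ones, and 4A1 KO 4 stood above the other 3. The log2 fold change was -2.52 with a 95% confidence interval of -3.49 to -1.55 (edgeR, adjusted p = 0.00115), and it was -3.64 within batch A and -1.89 within batch B. DESeq2 gave -2.74 without shrinkage and -1.46 with normal shrinkage (adjusted p = 9.01e-06 and 3.94e-05). The edgeR fits that left out 1 replicate gave -3.62 (without replicate 4) to -1.89 (without replicate 2, which is the same fit as within batch B).

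The TPM gave a smaller difference of Mxd3. They were 2.85, 4.76, 2.67 and 3.68 in control 1 to 4, and 2.43, 2.04, 1.92 and 2.31 in 4A1 KO 1 to 4, again without overlap. The mean fell by 43.5% in TPM and by 82.4% in CPM. On the log2(TPM + 1) scale the difference was -0.58 (limma, adjusted p = 0.0167), and it did not pass without replicate 2 (-0.42, limma, adjusted p = 0.0634) or with no filter on low TPM (-0.58, limma, adjusted p = 0.0981). Mxd3 overlaps Prelid1, a mitochondrial lipid transfer gene on the opposite strand, over 1526 bases. Prelid1 itself averaged 181 ± 11.6 CPM in control against 116 ± 11.0 in 4A1 KO (SD, n = 3) and was called lower (log2 fold change -0.65, edgeR, adjusted p = 6.63e-05). The counts were made by strand, and the strand setting for the TPM is not given in the sources used here. The part of the overlap in the TPM of Mxd3 was not tested.

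Mxd1 (chr6:86624024-86646218, minus strand) had 9.74, 9.40, 5.13 and 7.69 CPM in control 1 to 4 and 13.0, 11.5, 9.42 and 9.11 in 4A1 KO 1 to 4. Each 4A1 KO library exceeded its same-numbered control, but 4A1 KO 3 and 4 were below control 1, so the groups overlapped. Its log2 fold change was 0.46 with SE 0.14 (edgeR, adjusted p = 0.0186), and without replicate 3 it was 0.27 and did not pass (edgeR, adjusted p = 0.124).

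Mxi1 (chr19:53298852-53364241, plus strand) had 7.09, 6.63, 4.60 and 5.79 CPM in control 1 to 4 and 7.91, 10.4, 6.73 and 6.80 in 4A1 KO 1 to 4. Again each 4A1 KO library exceeded its same-numbered control while the groups overlapped. Its log2 fold change was 0.48 with SE 0.12 (edgeR, adjusted p = 0.00935), and without replicate 2 it was 0.39 and did not pass (edgeR, adjusted p = 0.0781).

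Mxd4 (chr5:34331227-34345240, minus strand) had 22.1, 25.5, 10.3 and 10.3 CPM in control 1 to 4 and 24.6, 23.1, 19.3 and 17.2 in 4A1 KO 1 to 4. Both batch B controls were below every 4A1 KO library, and both batch A controls were within their range or above it. Mxd4 had a log2 fold change of 0.49 with SE 0.18 (edgeR, adjusted p = 0.0449), and it did not pass without replicate 3 (0.29, edgeR, adjusted p = 0.184) or without replicate 4 (0.36, adjusted p = 0.0823), nor among genes averaging at least 1 CPM (0.49, adjusted p = 0.0516). Within batches it was 0.02 in batch A (edgeR, adjusted p = 0.909) and 0.82 in batch B (edgeR, adjusted p = 0.00238). The interaction of genotype with batch was 0.83 for Mxd4, with an adjusted p of 0.999 over all genes in edgeR.

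Mnt encodes a repressor that pairs with MAX or MLX and is present in cycling and resting cells alike (chr11:74721338-74736836, GRCm39, plus strand; ENSMUSG00000000282). Its CPM were 117, 81.2, 50.4 and 61.6 in control 1 to 4, and 126, 109, 101 and 88.9 in 4A1 KO 1 to 4. The 3 tested 4A1 KO libraries were above the 3 tested controls, whereas control 1 was above all 3 of them. Mnt averaged 64.4 ± 15.6 CPM in the 3 tested controls against 99.6 ± 9.94 in 4A1 KO (SD). Its log2 fold change was 0.65 with SE 0.10 (edgeR, adjusted p = 6.60e-04). With all 8 libraries it was 0.50, just below the limit on size (edgeR, adjusted p = 0.00732), and without replicate 3 it was 0.48 (edgeR, adjusted p = 2.62e-04), so the call of Mnt rests on its size. Within batches Mnt changed by 0.28 in batch A and by 0.77 in batch B on the log2 scale.

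Mga encodes a scaffold with a MAX-binding domain that belongs to a variant Polycomb complex (chr2:119727694-119800062, plus strand). It had 61.1, 68.4, 92.3 and 105.2 CPM in control 1 to 4 and 64.8, 89.8, 110.5 and 110 in 4A1 KO 1 to 4. In each genotype both batch B libraries were above both batch A libraries. Mga had a log2 fold change of 0.24 with SE 0.07 (edgeR, adjusted p = 0.0150), and the groups overlapped. Without replicate 2 it was 0.16 and did not pass (edgeR, adjusted p = 0.129).

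Mlxip, which encodes the sugar-responsive partner of MLX, is at chr5:123532794-123595995 (GRCm39, plus strand; ENSMUSG00000038342). Its CPM were 67.8, 45.4, 59.9 and 60.5 in control 1 to 4, and 86.2, 75.4, 92.7 and 84.5 in 4A1 KO 1 to 4. All 4A1 KO libraries were above all control libraries, and the batches overlapped in each genotype. Mlxip averaged 55.3 ± 8.55 CPM in control against 84.2 ± 8.64 in 4A1 KO (SD, n = 3), which is 52.4% more. Its log2 fold change was 0.61 with SE 0.06 (edgeR, adjusted p = 6.97e-05), the smallest p of the 10 members. It was 0.55 within batch A, 0.56 within batch B and 0.54 in all 8 libraries.

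Mlx, the partner of MLXIP, went the other way (chr11:100978080-100983043, plus strand). It had 20.8, 19.1, 26.7 and 26.8 CPM in control 1 to 4 and 20.04, 18.5, 20.35 and 22.3 in 4A1 KO 1 to 4. The 2 batch B controls were above all other libraries, and the rest overlapped. The log2 fold change of Mlx was -0.24 with SE 0.09 (edgeR, adjusted p = 0.0459), with -0.03 within batch A and -0.33 within batch B. It did not pass in all 8 libraries (-0.19, edgeR, adjusted p = 0.0615), without replicate 3 (-0.15, adjusted p = 0.304) or without replicate 4 (-0.22, adjusted p = 0.0970). Mlx also missed the adjusted p with upper quartile scaling (0.0659), with no filter on low counts (0.0558) and in DESeq2 without and with shrinkage (0.0932 and 0.0898). Mlx overlaps Psmc3ip on the opposite strand, which averaged 25.5 ± 1.26 CPM in control against 15.4 ± 0.933 in 4A1 KO (SD, n = 3).

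**Figure D2:**
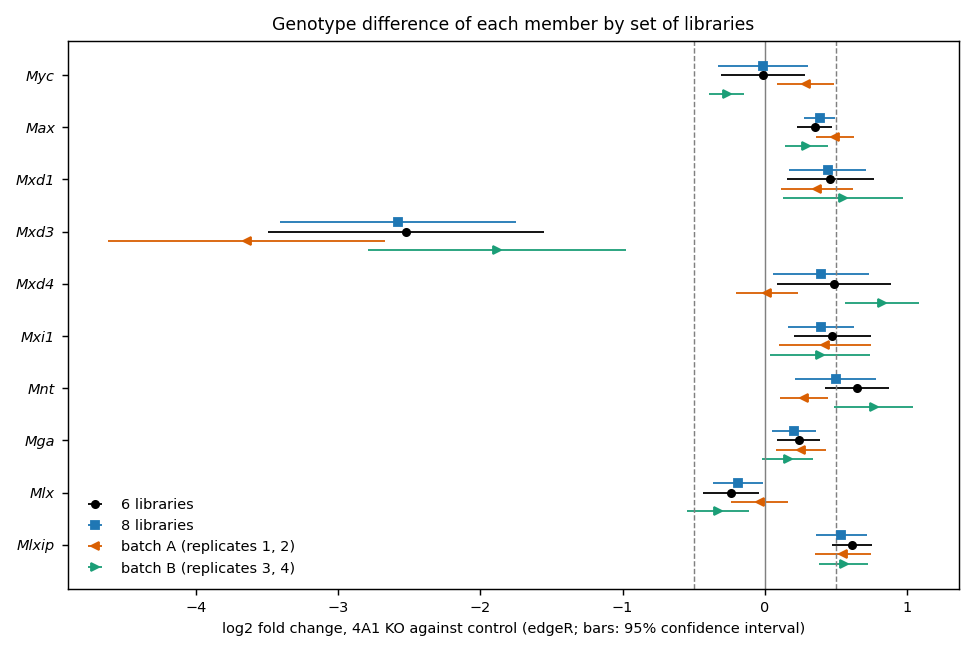
Log2 fold change of each member, 4A1 KO against control (horizontal axis), from edgeR with 95% confidence intervals, for the 6 libraries tested (black), all 8 libraries (blue), batch A (orange) and batch B (green); dashed lines mark 0.5 in either direction. Max and Mlxip lie above 0 and Mxd3 below 0 in all 4 fits, whereas Myc is at 0.29 in batch A and at -0.27 in batch B.

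Among the controls, 8 of the 10 members did not overlap between the 2 libraries of batch A and the 2 of batch B, beside 51.2% of all genes tested. Mxd1, Mxd4, Mxi1 and Mnt were higher in both batch A controls than in both batch B controls, Myc, Max, Mga and Mlx were lower, and Mxd3 and Mlxip overlapped. The batch B mean was 0.431 times the batch A mean for Mxd4, 0.566 times for Mnt, 1.53 times for Mga and 1.57 times for Myc. In 4A1 KO the same orders held except that Myc overlapped, which left 7 of 10 members without overlap beside 48.8% of all genes. Each batch holds 1 male and 1 female per genotype, and batch A includes the replicate with low viability, so viability and batch cannot be fully told apart here. No member passed an adjusted p of 0.05 for an interaction of genotype with sex or with batch in edgeR, where 0 and 1 of 14211 genes did. At an unadjusted p under 0.05 these were 0 members and 405 genes for sex, and 3 members (Mxd3, Mxd4 and Mnt) and 610 genes for batch.

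Levels were compared between genes per length, in TPM unless counts per kilobase of exon are named. Myc was the most abundant member in control at 416 ± 153 TPM (SD, n = 3) and in 4A1 KO at 396 ± 54.5, followed by Max at 140 ± 15.5 and 186 ± 8.42. Neither gene overlapped with its neighbour in this order in either genotype. In control, Mnt (26.6 ± 6.11) and Mlx (23.3 ± 4.92) overlapped, and so did the run of Mlxip (15.4 ± 3.05), Mga (14.0 ± 3.18), Mxd4 (7.98 ± 4.54), Mxi1 (4.66 ± 0.810), Mxd3 (3.70 ± 1.04) and Mxd1 (3.04 ± 0.890), each with the next. In 4A1 KO Mnt stood alone at 40.8 ± 3.33 TPM, Mlxip (23.4 ± 2.84), Mlx (19.2 ± 2.15) and Mga (16.3 ± 2.78) overlapped each with the next, and Mxd4 (9.64 ± 1.27), Mxi1 (6.32 ± 1.56), Mxd1 (4.12 ± 0.533) and Mxd3 (2.09 ± 0.197) did not overlap. Mlx was above Mlxip without overlap in control, and the pair overlapped in 4A1 KO. The place of Mxd3 in these orders rests on its TPM, which differed from its counts by strand. In control Mxd3 averaged 1.86 CPM over 2760 exon bases and Mxd1 7.41 CPM over 7322, so per kilobase of exon Mxd3 was below Mxd1.

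The balance of the mRNAs that compete for MAX was summarised in each library as a description. Myc made up 81.8, 78.4, 89.9 and 90.2% of the summed TPM of Myc, the MXD genes, Mnt and Mga in control 1 to 4, and 80.9, 81.3, 82.3 and 85.8% in 4A1 KO 1 to 4. The 2 batch B controls were above every other library. Mnt and the 4 MXD genes together had 19.6, 23.4, 7.92 and 7.82 TPM per 100 TPM of Myc in control 1 to 4, and 21.0, 19.3, 16.9 and 12.4 in 4A1 KO 1 to 4. The groups overlapped, the batch B controls having the lowest ratios and control 2 the highest. The summed partners per Max were 3.58, 2.68, 3.31 and 4.09 in control 1 to 4 and 2.52, 2.50, 2.32 and 2.83 in 4A1 KO 1 to 4. In TPM all 4A1 KO libraries but the fourth were below all controls, and 4A1 KO 4 was above control 2. From counts per kilobase of exon the ratios were larger, 6.88, 4.87, 6.20 and 7.71 in control and 5.06, 4.87, 4.44 and 5.64 in 4A1 KO, and 4A1 KO 3 was the 1 library below all controls.

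**Figure D3:**
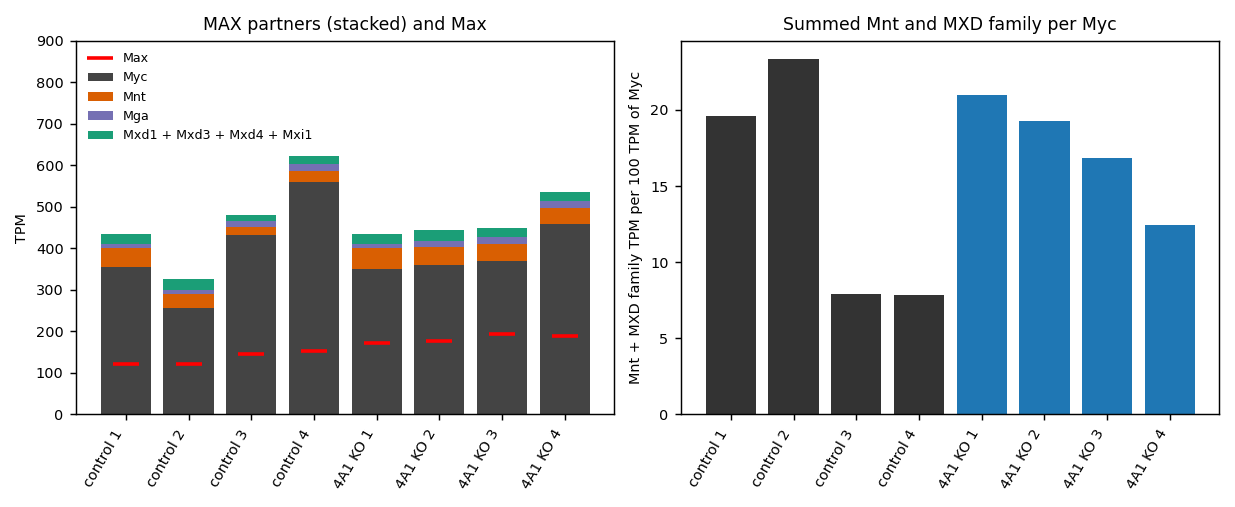
Left, TPM of the mRNAs that encode MAX partners in each library, stacked, with the TPM of Max as a red dash; right, summed TPM of Mnt, Mxd1, Mxd3, Mxd4 and Mxi1 per 100 TPM of Myc, with control in black and 4A1 KO in blue. Control 3 and 4 have the lowest ratios, 7.92 and 7.82, and control 1 and 2 have 19.6 and 23.4.

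The genes whose log2 CPM followed Myc most closely over the 8 libraries, outside the network, were BC002059 (Pearson r = 0.965), mt-Nd1 (r = 0.958) and Mast3 (r = 0.949). For Mxd3 they were Bcam (r = 0.996, at a mean of 0.504 CPM), Ccnb2 (r = 0.993) and Foxm1 (r = 0.991). Of the members, Mlx was the most like Myc (r = 0.783) and Mxd4 the least (r = -0.784). These 8 points share genotype, batch and sex, and the values are a description.

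Genes that act with the network or are known as its targets were followed as 11 lists, each described by its calls and its median. Of all genes tested, 11.6% were called higher and 13.7% lower, and 26.3% and 26.7% passed the adjusted p in these directions. Of the paralogs of Myc, Mycl was called lower, from 0.573 ± 0.204 to 0.210 ± 0.128 CPM (SD, n = 3, log2 fold change -1.45, edgeR, adjusted p = 0.00908, not called without replicate 2 at -1.21), and Mycn, averaging 0.0406 CPM in control and 0 for 4A1 KO, was too low to be tested. Mlxipl, the paralog of Mlxip, was too low as well. None of 14 cofactors of MYC was called, and their median log2 fold change was 0.11. Zbtb17, which encodes MIZ1, a factor through which MYC represses, rose by 0.40 on the log2 scale (edgeR, adjusted p = 3.00e-04) without reaching the limit on size, and 6 of the 14 passed the adjusted p upwards and 1 downwards, beside 26.3% and 26.7% of all genes.

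Of 12 genes that set the turnover of the MYC protein, 1 was called higher and 3 lower, beside 11.6% and 13.7% of all genes, with a median of -0.01. Usp36, a nucleolar deubiquitinase of MYC, rose from 138 ± 28.6 to 249 ± 33.6 CPM (SD, n = 3, log2 fold change 0.86, edgeR, adjusted p = 2.48e-05). Cip2a, an inhibitor of the phosphatase PP2A that stabilises MYC, fell from 45.8 ± 6.86 to 15.5 ± 5.22 CPM (log2 fold change -1.60, edgeR, adjusted p = 1.45e-05). Aurka, the mitotic kinase that binds MYC family proteins, and Skp2, a ubiquitin ligase subunit, were also lower, with log2 fold changes of -1.10 and -0.63 (edgeR, adjusted p = 2.81e-05 and 9.97e-04). Fbxw7, the main ubiquitin ligase subunit for MYC, had 0.16 (edgeR, adjusted p = 0.0538).

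None of 11 genes of the SIN3 and NCOR corepressors was called, and their median was -0.03. Of the 11, 3 passed the adjusted p upwards and 2 downwards, beside 26.3% and 26.7% of all genes. All were within 0.27 of 0 on the log2 scale. Among 10 genes of the MGA complex, 1 was called higher and 2 lower, beside 11.6% and 13.7% of all genes, with a median of -0.07. Rybp was the higher one (0.60, edgeR, adjusted p = 2.24e-04), and E2f6 (-0.65, adjusted p = 5.08e-05) and Cbx3 (-0.55, adjusted p = 6.88e-05) were lower. E2F6, like MGA, is a DNA-binding subunit of that complex. Of 9 genes next to Myc or for proteins known to bind its mRNA, 8 were tested and none was called (median 0.18). Pvt1, the noncoding neighbour of Myc, had 12.6 ± 1.46 and 14.2 ± 1.07 CPM (SD, n = 3, log2 fold change 0.17, edgeR, adjusted p = 0.132).

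The genes known to be induced by MYC were described in 3 lists. Of 18 nucleolar genes, 1 was called higher and none lower, beside 11.6% and 13.7% of all genes, and the median was 0.12. This was Ppan (0.51, edgeR, adjusted p = 3.82e-04, not called without replicate 2 at 0.39). In the same list 10 passed the adjusted p upwards and 3 downwards, beside 26.3% and 26.7% of all genes. Of 16 metabolic genes, 3 were called higher and 2 lower, beside 11.6% and 13.7% of all genes, with a median of -0.12. In this list 5 passed the adjusted p upwards and 8 downwards, beside 26.3% and 26.7% of all genes. Tfrc, the transferrin receptor, fell from 342 ± 52.0 to 181 ± 39.3 CPM (SD, n = 3, log2 fold change -0.93, edgeR, adjusted p = 1.09e-05). Odc1, the first enzyme of polyamine synthesis, rose from 398 ± 3.65 to 615 ± 46.2 CPM (0.63, edgeR, adjusted p = 2.64e-05), and Slc7a5, a large neutral amino acid transporter, from 466 ± 14.9 to 708 ± 54.7 CPM (0.60, edgeR, adjusted p = 3.86e-05). Of 10 cell cycle genes, 7 were called lower, beside 13.7% of all genes, and none higher, beside 11.6%, with a median of -0.92. These were Cdc25a (-1.002), Ccne1 (-1.74), E2f1 (-0.97), E2f2 (-1.70), Mcm4 (-0.87), Mcm5 (-0.63) and Mcm7 (-1.12), which encode a phosphatase, a cyclin, E2F factors and subunits of the replicative helicase. Ccnd2 and Cdk4, of the earlier G1 step, passed the adjusted p below the limit on size (-0.21 and -0.22, edgeR, adjusted p = 0.0248 and 0.00350), so that 9 of the 10 passed it downwards, beside 26.7% of all genes.

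Among 8 genes known to be repressed by MYC, Gadd45g was called higher, from 26.2 ± 3.68 to 52.2 ± 3.53 CPM (SD, n = 3, log2 fold change 1.00, edgeR, adjusted p = 5.92e-05), and Cdkn2c lower, from 15.4 ± 1.79 to 6.03 ± 0.822 CPM (-1.35, edgeR, adjusted p = 1.65e-05). That is 1 of 8 in each direction, beside 11.6% of all genes called higher and 13.7% lower. The median of the 8 genes was 0.25, and Cdkn1a (0.22) and Cdkn1b (-0.07), for the CDK inhibitors p21 and p27, did not pass. Of 2 known targets of MLX and MLXIP, Txnip, an inhibitor of glucose uptake, rose from 123 ± 31.97 to 178 ± 40.9 CPM (0.54, edgeR, adjusted p = 1.98e-04, not called without replicate 3 at 0.44), and Arrdc4 was too low to be tested.

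**Figure D4:**
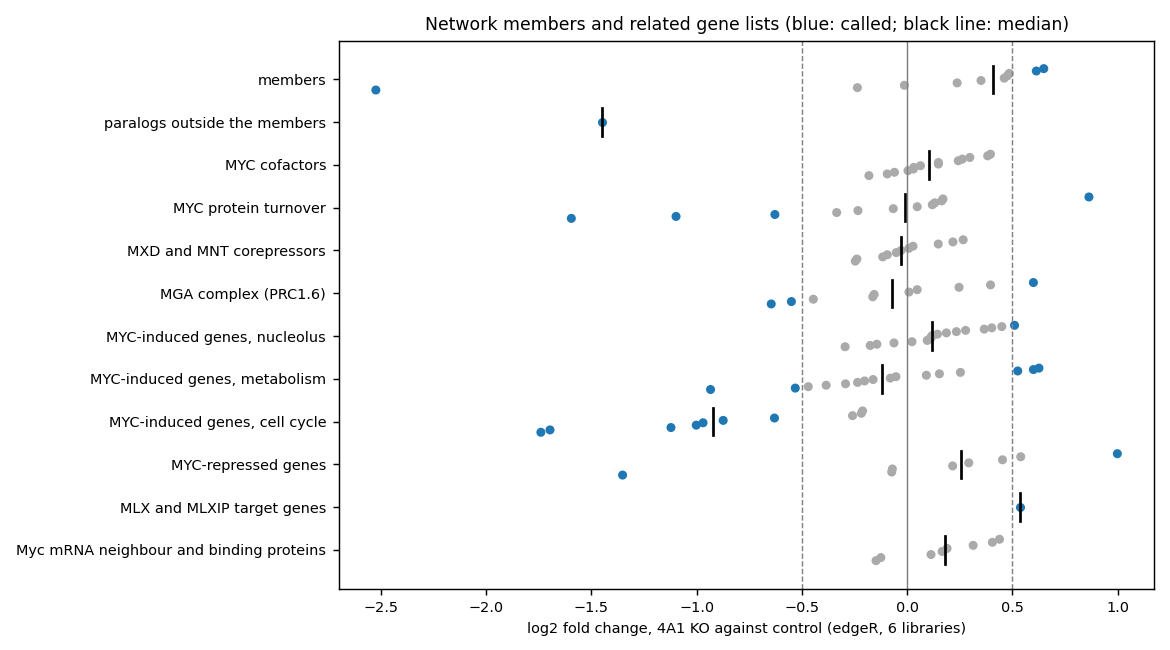
Log2 fold change, 4A1 KO against control (horizontal axis, edgeR, 6 libraries), of each tested gene of the network and of the 11 related lists; blue points were called, grey points were not, black lines are list medians and dashed lines mark 0.5 in either direction. The cell cycle list has its median at -0.92 and 7 of 10 genes called lower, beside 13.7% of all genes. No cofactor or corepressor gene was called.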

How the data were processed

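RNA of activated splenic B cells from 4 control and 4 4A1 KO mice was sequenced with a directional kit. Per the labels and the study's methods, the authors trimmed reads (Trim Galore 0.6.6), aligned them to GRCm39 (HISAT2 2.1.0), and deposited unnormalized read counts per gene, made by strand in Seqmonk with the Ensembl 105 annotation. The authors deposited TPM made with StringTie 2.1.1. How reads mapping to several places were counted is not given in the sources used here. No per-sample column was left unused (0). Genotype, replicate, batch and sex came from the labels.

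Replicates 2 to 4 were compared with edgeR 4.0.16 (R 4.3.3), using filterByExpr by genotype, TMM scaling and a quasi-likelihood fit whose terms were genotype, sex and batch. Tests were two-sided, with Benjamini-Hochberg adjustment over all genes. Calls needed both an adjusted p below 0.05 and a log2 fold change beyond 0.5 in either direction. CPM use TMM factors over 8 libraries. The log2(TPM + 1) values of 12976 genes averaging 1 TPM or more were compared with limma 3.58.1 and the same terms. Alternatives were DESeq2 1.42.0 (unshrunken and with normal shrinkage), its size factors, upper quartile scaling, other filters and pseudocounts, all 8 libraries, leaving out each replicate and no replicate block. The fits within each batch, with sex as a term, were chosen after seeing the data. The batch B fit holds the same libraries as the fit without replicate 2 and gives the same values, so these are 1 fit. In the 6 libraries batch and sex equal the replicate number. Same-numbered libraries correlated at 0.594, 0.502 and 0.432 across genes after subtraction of the genotype means, and others at -0.435 to 0.0186. Same-numbered libraries share batch and sex, and the subtraction itself lowers the other correlations. These values therefore cannot show a pairing of mice beyond batch and sex. The scripts were tested on simulated data.

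The members and gene lists were chosen with earlier results of these data known. The text names all members, every called gene of lists of up to 12 genes, the 3 called genes with the smallest adjusted p of longer lists, and the 3 genes most correlated with Myc and with Mxd3. Zbtb17, Fbxw7, Pvt1, Ccnd2, Cdk4, Cdkn1a, Cdkn1b, Prelid1 and Psmc3ip were named after their values were seen. Coordinates are those of GENCODE M39.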

Additional observations from a re-analysis of the deposited data

Results flagged for a closer look

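In 44 groups of 4 libraries (each member in CPM and TPM and 2 ratios of their TPM, by genotype), 3 had a library apart from the others by Dixon's ratio at its 95% critical value, the ratio being the distance of the extreme library from its neighbour over the whole range. Chance alone flags about 1 group in 20, or 2.2 of 44. For Mxd3 the ratio was 0.944 in the CPM of 4A1 KO, where 4A1 KO 4 had 0.701 CPM and the next library 0.156. For Myc it was 0.833 in the TPM of 4A1 KO, where 4A1 KO 4 had 459 TPM and the next library 369. For Mlxip it was 0.867 in the TPM of control, where control 2 had 11.9 TPM and the next library 16.8.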

How the results depend on the processing

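Mxd3 and Mlxip were called in the same direction in every alternative fit of the counts, while the number of genes called ranged from 2738 to 3821. In every such fit Max, Mxd1, Mxd3, Mxd4, Mxi1, Mnt, Mga, Mlx and Mlxip kept their direction. Myc, which passed no call, turned from -0.01 to 0.0098 with upper quartile scaling and to 0.29 within batch A (log2, edgeR). Leaving out 1 replicate gave Myc -0.27 (without replicate 2) to 0.12 (without replicate 3 or 4) in the counts, and -0.26 (without replicate 2) to 0.13 (without replicate 4, 0.10 without replicate 3) in TPM. The number of members called higher was 2, and it was 1 with all 8 libraries (Mnt lost) and 1 to 4 when 1 replicate was left out: Mnt was lost without replicate 3, Mxd1 and Mxd4 were gained without replicate 2, and Mxd1 and Mxi1 without replicate 4. With upper quartile scaling Mxd4 was also called (0.51). Members past the adjusted p in TPM were 6, and 2 with no filter on low TPM (Max and Mlxip). Over the alternative fits of the TPM, Mga lost the adjusted p in 6, Mxi1 in 4, Mxd3 in 2 and Mnt in 1. Max and Mlxip kept it in all 7, while Mlx gained it in 2 and Myc, Mxd1 and Mxd4 in 1 each. The summed MXD family per Myc was 0.0561 in control and 0.0571 in 4A1 KO in TPM, and 0.0287 and 0.0292 from counts per kilobase of exon. In TPM it was 0.0313 in control and 0.0499 in 4A1 KO without replicate 2. Of the genes in the 11 lists, 24 were called, and 72 at the adjusted p alone. Among all genes tested, 11.6% were called higher and 13.7% lower, and 26.3% and 26.7% passed the adjusted p in these directions. Without replicate 2, Eno1 was not called (-0.47) and Cdkn2b was (1.20), without replicate 3 Slc3a2 was not (0.43) and Igf2bp3 was (0.60), and without replicate 4 Tfdp1 was (-0.51). Apart from the count at the adjusted p alone, which drops the limit on size, the cause was not tested. Without the replicate block, 3000 genes were called in place of 3596, and Mnt, Mlxip and Mxd3 were still called, at log2 fold changes of 0.63, 0.61 and -2.47, but Mxd1, Mxd4, Mxi1, Mga and Mlx no longer passed the adjusted p (0.113 to 0.430, edgeR), nor were Mycl (-1.42), Ppan (0.50) and Txnip (0.53) called. Among the members, the depth limits Mxd3 most, at 4 to 30 counts in 4A1 KO. With 3 mice per genotype tested, the interval of Myc was wide (-0.31 to 0.28), and those of Max (0.23 to 0.48) and Mlxip (0.47 to 0.76) were narrower. The cause of this difference was not tested.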
